A study of Homo sapiens
Mus musculus with 17 samples.

Results

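The host genes Apln, Aplnr, Dll4, Esm1, Notch1, Notch4 and Hey1 belong to apelin signalling, to Notch signalling and to the tip cells that lead a growing vessel sprout. They were taken by symbol from the deposited mouse table, 7 of its 23337 genes. All 7 passed the filter of a mean of at least 10 normalized counts, as did 11831 mouse genes in all. Apln, Dll4 and Notch4 fell in the tumours that received nintedanib, by 4.26-fold, 2.99-fold and 2.39-fold over both pairs of groups that differ in it. These calls were lost when the libraries rich in ribosomal reads were left out. General endothelial genes were lower too, and Notch4 was not distinguished from them. Esm1 was lower by 4.19-fold but did not pass in limma, the main test, with all libraries, and passed without 1 alpelisib library. On the deposited scale no change of Aplnr, Notch1 or Hey1 passed with all libraries in limma.

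The libraries came from 17 tumours grown in mice from VM-CUB-1, an established line of human bladder carcinoma. Mouse reads were therefore taken as reads of the host cells inside each tumour. Whether human reads of conserved genes were assigned to mouse was not tested. The hosts were athymic nude mice, Hsd:Athymic Nude-Foxn1nu, which lack a thymus and so lack most mature T cells. All 17 tumours share this line and this host strain, and the series text describes the line as resistant to nintedanib. Over 7 days 4 tumours received 25 mg/kg of alpelisib (BYL719), which inhibits the alpha form of phosphoinositide 3-kinase. A further 5 received 40 mg/kg of nintedanib, an inhibitor of the receptor kinases for VEGF, FGF and PDGF, 4 received the combination of these doses, and 4 received the vehicle alone, methylcellulose at 0.5% in 0.1% Tween80. The sample titles name 3 nintedanib tumours responders and 2 non-responders, whereas the series text gives those numbers the other way round, and the titles were followed. Whether each tumour had its own mouse is not in the labels, and p-values then reflect only how these libraries varied.

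Apelin is a secreted peptide made by sprouting endothelial cells, and its receptor Aplnr is a G protein-coupled receptor found mainly on veins and growing vessels. In a sprout, VEGF raises the Notch ligand Dll4 on the tip cell, and Dll4 activates Notch1 on the neighbouring stalk cells. Notch4 is a receptor largely restricted to endothelium, Hey1 is a transcriptional repressor induced by Notch, and Esm1 (endocan) is a proteoglycan that tip cells secrete.

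The libraries held 2271764 to 7438823 mouse reads (median 5084126) and 7429753 to 25654879 human reads. Ribosomal Rn45s together with Lars2 took 1.73% to 72.9% of the mouse reads, and over 40% in 4 libraries (Vehicle 3, Alpelisib 3, Combination 1 and Combination 4). Endothelial marker genes were present in every tumour, with 12 of them summing to 3052 to 4150 normalized counts after vehicle, 1541 to 2295 after nintedanib and 1580 to 2388 after the combination. The 2 non-responder tumours also had high sums of adipocyte markers (3206 and 3464, against 219.5 to 698 in the responders), and Non-responder 1 had a skeletal muscle sum of 39890. Mouse reads of keratin and other epithelial genes summed to 35230 to 60750 after vehicle, 91210 to 152400 after alpelisib, 58540 to 90920 after nintedanib and 77750 to 243000 after the combination. These sums were thus higher in all alpelisib and combination tumours than in any vehicle tumour, whereas the nintedanib tumours overlapped vehicle. The part of these sums in the results was not tested.

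Alpelisib 1 stood apart from the other 3 alpelisib libraries, and results are therefore given with and without it. It had the fewest mouse reads. Its endothelial sum was 2000 against 3673 to 4226 in the other 3, and 11 of the 12 endothelial genes were lower in it than in each of them. Of the 7 genes, 6 were below the other 3 alpelisib libraries and Notch1 was above them. The same position below the other 3 was held by 15 of the 17 genes that passed as lower after nintedanib (88.2%) and by 29.4% of all genes tested. Alpelisib 1 lay within the range of the 9 tumours that received nintedanib for 6 of the 7 genes. It also did so for 8 of those 17 genes and for 9001 of all 11831 genes tested. Its keratin and epithelial sum was also the highest of the alpelisib group (152400, against 91210 to 134000).

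**Figure D1:**
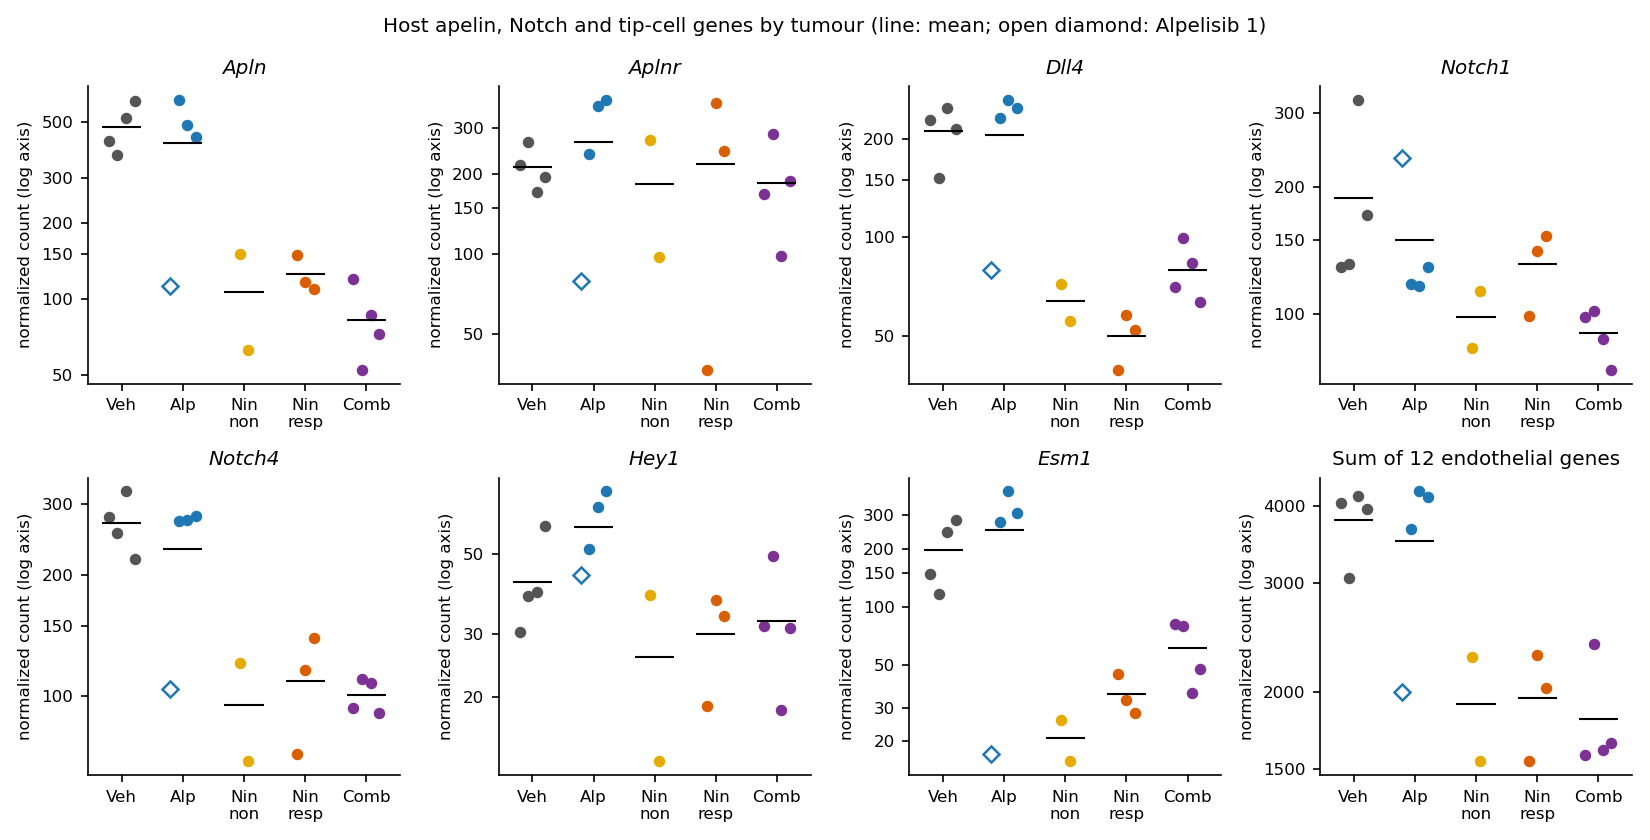
Normalized count of each of the 7 host genes, and the sum of 12 endothelial genes, in the 17 tumours on log axes. Points are libraries, lines are group means, and the open diamond is Alpelisib 1. For Apln, Dll4, Esm1 and Notch4 the nintedanib (Nin, non-responders and responders) and combination (Comb) tumours lie below all 4 vehicle (Veh) tumours, and Alpelisib 1 lies with them and not with the other alpelisib (Alp) tumours.

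The apelin ligand was low in all tumours that received nintedanib. Apln was at 423, 370, 519 and 606 normalized counts in the 4 vehicle tumours. After nintedanib it was at 151 and 62.9 in the non-responders and 150, 117 and 109 in the responders, and after the combination at 120, 52.3, 86.1 and 72.3. The highest of these 9 nintedanib-exposed tumours thus lay below the lowest vehicle tumour. The alpelisib tumours were at 112 in Alpelisib 1 and at 615, 487 and 439 in the others. Those 3 were within or just above the vehicle range, whereas Alpelisib 1 was within the exposed range.

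Changes were tested with limma across all 11831 genes and are given as log2 fold changes ± SE of the value plus 1, with p-values adjusted over those genes. A gene passed at an adjusted p under 0.05. Apln fell by 2.05 ± 0.40 with nintedanib (4.15-fold, adjusted p = 0.0466) and by 2.56 ± 0.42 with the combination (5.89-fold, adjusted p = 0.0126). Both comparisons share the 4 vehicle libraries. The nintedanib call was narrow: of 17 fits that each left out 1 library it was lost in 14, all but those without Alpelisib 1, Alpelisib 2 or Non-responder 1, with adjusted p up to 0.152 and changes between -2.17 and -1.85. The combination call was lost without Combination 4 (adjusted p = 0.0605). In a bulk tumour, fewer endothelial cells and less RNA per cell cannot be told apart.

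For the combination against alpelisib, which shares no library with nintedanib against vehicle, the Apln change was -2.13 ± 0.42 (adjusted p = 0.311), and without Alpelisib 1 Apln fell by 2.67 ± 0.31 (adjusted p = 0.00146). Averaging these 2 comparisons, which share 1 estimate of spread per gene, gave the main effect of nintedanib. In it Apln fell by 2.09 ± 0.29 (4.26-fold, adjusted p = 0.00142). That call held in all 17 fits with a library left out, with a highest adjusted p of 0.0071.

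Dll4, the tip-cell Notch ligand, followed the same pattern. Its values were 229, 152, 248 and 215 after vehicle and 79.4 in Alpelisib 1 against 232, 264 and 249 in the other alpelisib tumours. The non-responders had 71.8 and 55.6, the responders 39.3, 57.9 and 52.2, and the combination tumours 70.6, 99.6, 83.6 and 63.6. Every exposed tumour was below every vehicle tumour, and the combination tumours tended to the upper end of the exposed range. Dll4 fell 3.77-fold with nintedanib (log2 change -1.91 ± 0.30), a call lost in 1 of 17 fits, that without Vehicle 1 (adjusted p = 0.0508). With the combination Dll4 fell by 1.40 ± 0.32 (2.63-fold, adjusted p = 0.0452), a call lost in 15 of 17 fits, all but those without Alpelisib 1 or Responder 1, with adjusted p up to 0.14, and also lost under TMM scaling (adjusted p = 0.0514) and in limma-voom (adjusted p = 0.0551). In the main effect of nintedanib Dll4 fell by 1.58 ± 0.22 (2.99-fold, adjusted p = 0.00142), and all 17 fits kept the call.

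Esm1 showed the widest spread among libraries. It was at 149, 117, 246 and 282 after vehicle and at 278, 401 and 310 in Alpelisib 2 to 4. The nintedanib tumours held 26.0 and 15.7 (non-responders) and 44.7, 32.7 and 28.1 (responders), and the combination tumours 81.8, 79.5, 35.7 and 47.4. All 9 lay below the vehicle tumours, and Alpelisib 1, at 17.1 from 11 reads, was 19.3 times lower than the mean of the other 3 alpelisib libraries.

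That library widened the spread estimated for Esm1, and with it no comparison on the deposited scale passed in limma for this gene. The nintedanib change was -2.70 ± 0.64 (6.48-fold, adjusted p = 0.131) and the combination change -1.68 ± 0.68 (adjusted p = 0.22). Without Alpelisib 1 the same changes had an SE of 0.30 and 0.32 and passed (adjusted p = 0.000261 and 0.0205). The main effect of nintedanib moved from -2.07 ± 0.47 (adjusted p = 0.052) to -2.59 ± 0.23 (adjusted p = 7.16e-06). With all libraries edgeR's quasi-likelihood test on the recovered reads passed Esm1 in the main effect (adjusted p = 0.00547), as did limma with a pseudocount of 5 (adjusted p = 0.0471). DESeq2 passed Esm1 there (adjusted p = 1.27e-07), with nintedanib (adjusted p = 7.27e-05) and with the combination (adjusted p = 0.0476).

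Among the receptors, Notch4 was lower and Aplnr was not distinguished. Notch4 stood at 278, 255, 324 and 220 after vehicle and at 273, 274 and 280 in Alpelisib 2 to 4, against 104 in Alpelisib 1. The exposed tumours were at 121 and 68.9 (non-responders), 72 to 140 (responders, with 116 between) and 91.0 to 111 (combination), all below the vehicle range. Notch4 fell by 1.40 ± 0.30 with the combination (2.64-fold, adjusted p = 0.0368), a call lost in the 9 fits without a vehicle library, a combination library or Responder 2 (adjusted p up to 0.117). With nintedanib its change was -1.41 ± 0.29 (adjusted p = 0.0617), which passed without Alpelisib 1 (adjusted p = 0.00498) and also without Non-responder 1. In the main effect it fell by 1.25 ± 0.21 (2.39-fold, adjusted p = 0.00586) and kept the call in all 17 fits.

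Aplnr, the apelin receptor, varied as much within groups as between them. Vehicle tumours had 172 to 266, Alpelisib 1 had 79.4 and the other alpelisib tumours had 240 to 384. The nintedanib tumours spanned 36.6 (Responder 1) to 373 (Responder 2), and the combination tumours 98.4 to 284. The nintedanib change was -0.43 ± 0.57 with a 95% interval from -1.62 to 0.76, which reaches a 3-fold decrease. Its sign was positive without Responder 1 (0.08). The combination change was -0.28 ± 0.60, and neither passed.

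Notch1, the receptor that Dll4 activates, had fewer mouse than human reads in 17 of 17 libraries (59 to 377 against 331 to 2069). Mouse Notch1 was at 130, 131, 324 and 172 after vehicle, 235 in Alpelisib 1 and 117 to 129 in the other alpelisib tumours. It was at 82.9 to 154 after nintedanib and at 73.5 to 102 after the combination. The combination tumours were below all vehicle and all alpelisib tumours, but the change against vehicle, -0.96 ± 0.29, did not pass (adjusted p = 0.11), nor did the nintedanib change of -0.60 ± 0.28 (adjusted p = 0.574). DESeq2 passed Notch1 with the combination (adjusted p = 0.0324). Without Vehicle 3, the library with the highest ribosomal share, these changes were -0.67 and -0.31.

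Hey1, the Notch target, had few reads (11 to 131 per library). Its values were 30.3 to 59.7 after vehicle, 43.6 to 74.5 after alpelisib, 13.3 to 38.4 after nintedanib and 18.5 to 49.3 after the combination. Vehicle overlapped every other group. All 5 nintedanib tumours lay below all 4 alpelisib tumours, as they also did for Dll4, so for 2 of 7 genes (1.49% of all genes). No comparison passed: the nintedanib change was -0.61 ± 0.34 (95% interval -1.32 to 0.10), the combination change -0.38 ± 0.35, and the main effect of nintedanib -0.75 ± 0.24 (adjusted p = 0.232).

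The 7 genes were chosen with earlier results of these data known, so the shares of all genes beside their counts are descriptive. Counted over the 7 genes, 2 passed as lower with nintedanib, where 0.144% of all genes tested did. With the combination 3 passed as lower (background 0.38%), and for the combination against alpelisib 0 did (background 0.00845%), although 6 were lower at an unadjusted p under 0.05 in limma, where 3.65% of all genes were (edgeR passed 0 and DESeq2 3). In the main effect of nintedanib 3 of 7 passed as lower (background 0.499%). Without Alpelisib 1 the same 4 genes (Apln, Dll4, Esm1 and Notch4) passed in each of these comparisons, where the backgrounds were 0.245%, 0.507%, 0.11% and 0.879%. The median change of the 7 genes was -1.41 with nintedanib and -1.40 with the combination, against 0.02 and -0.02 over all genes tested.

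By position alone, 4 of 7 genes (Apln, Dll4, Esm1 and Notch4) had all 9 exposed tumours below all 4 vehicle tumours, as did 0.997% of all genes. Below the 7 unexposed tumours other than Alpelisib 1 the same 4 genes stood out of 7, against 0.558% of all genes. The nintedanib group alone was below vehicle for those 4 genes (1.52% of all genes), and the combination group for these and Notch1 (4.74%). The combination was below all alpelisib tumours for 1 of 7 genes, Notch1 (2.14%), and below those other than Alpelisib 1 for 6, all but Aplnr (4.46%). None of the 7 had all alpelisib tumours below all vehicle tumours, against 3.03% of all genes.

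On the deposited scale, leaving out the 4 libraries rich in ribosomal reads ended every call of the 7 genes with nintedanib, the combination and the main effect. The main effect of Apln was then -2.10 ± 0.37 (adjusted p = 0.0913), against -2.09 with all libraries. That of Dll4 was -1.34 ± 0.26 (adjusted p = 0.14), against -1.58. Not all sizes were as stable: without Vehicle 3 alone the nintedanib change of Notch1 went from -0.60 to -0.31. With Alpelisib 1 left out as well, an alternative added after seeing the data, 4 of 7 genes passed as lower in the main effect (background 0.186%), 3 with nintedanib (0.169%), 1 with the combination (0.118%) and 0 for the combination against alpelisib (0%).

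**Figure D2:**
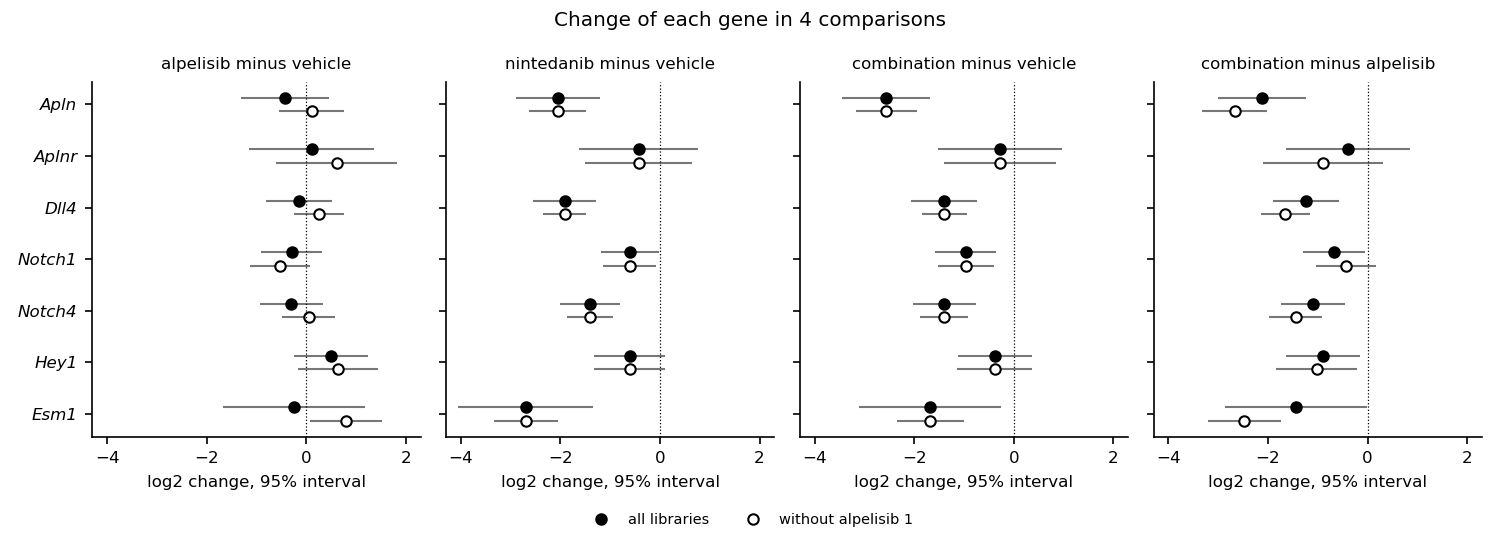
Log2 change of each of the 7 host genes in 4 comparisons, with 95% intervals from limma, with all 17 libraries (filled) and without Alpelisib 1 (open). Intervals of Apln, Dll4, Notch4, Esm1 and Notch1 lie below 0 against vehicle after nintedanib and after the combination, although not all of these changes passed after adjustment, whereas those of Aplnr and Hey1 cross 0. Without Alpelisib 1 the intervals of Esm1 narrow and its change with alpelisib moves from -0.24 to 0.80.

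Alpelisib alone gave no call among the 7 genes, none of which had an unadjusted p under 0.05 in limma. Over all genes limma, edgeR and limma-voom called 0 (background 0%), limma found 1249 at an unadjusted p under 0.05 (10.6%), and DESeq2 called 113, of which none was among the 7. DESeq2 gave an adjusted p to only 2645 genes in this comparison, against 11724 with nintedanib, and genes outside those 2645 could not be called. The changes depended on Alpelisib 1. Apln was at -0.43 ± 0.42 with it and 0.11 ± 0.31 without, Dll4 at -0.15 ± 0.32 and 0.26 ± 0.23, Notch4 at -0.30 ± 0.30 and 0.05 ± 0.25, and Esm1 at -0.24 ± 0.68 and 0.80 ± 0.35. For Esm1 the value without it had an adjusted p of 0.378, and no gene passed (0%).

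The combination was not distinguished from nintedanib for any of the 7 genes, and over all genes limma also called 0 (background 0%; 830 or 7.02% at an unadjusted p under 0.05; edgeR 0, DESeq2 30). Apln differed by -0.51 ± 0.40 (95% interval -1.35 to 0.33), Dll4 by 0.52 ± 0.30 (-0.11 to 1.15) and Esm1 by 1.02 ± 0.64 (-0.34 to 2.37). Dll4 and Esm1 thus had the higher means in the combination, 79.3 ± 15.8 (SD, n = 4) against 55.4 ± 11.7 (SD, n = 5) for Dll4 and 61.1 ± 23.1 against 29.4 ± 10.6 for Esm1, with overlapping tumours. Without Alpelisib 1 these changes had unadjusted p of 0.0223 and 0.00374 in limma and adjusted p of 0.61 and 0.507, where 0.0169% of all genes passed. The departure from additivity, the combination plus vehicle less both single drugs, passed for none of the 7 genes (background 0%, 571 or 4.83% of all genes at an unadjusted p under 0.05, edgeR and DESeq2 0) and for Esm1 was 1.26 ± 0.94 with all libraries and 0.22 ± 0.46 without Alpelisib 1. For Apln it was -0.07 ± 0.58 and -0.62 ± 0.41.

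No difference between responders and non-responders passed for any of the 7 genes, with 3 against 2 tumours. None had an unadjusted p under 0.05 in limma, where 2.05% of all genes did (adjusted calls 0%, edgeR 0, limma-voom 1 and DESeq2 2 over all genes, none of the 7). By position, Esm1 was higher in all 3 responders (28.1 to 44.7) than in the 2 non-responders (15.7 and 26.0). The share of all genes so placed was not counted. The differences, responders less non-responders, ran from -0.35 ± 0.41 for Dll4 to 0.74 ± 0.88 for Esm1. For Esm1 the 95% interval from -1.10 to 2.58 covers both a decrease and a several-fold increase. Both kinds of tumour lay below vehicle for Apln, Dll4, Esm1 and Notch4.

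General endothelial genes were lower after nintedanib too. In the main effect 4 of 12 passed as lower, where 0.499% of all genes did. The 4 were Pecam1, Cdh5, Tie1 and Cldn5, which encode junction and surface proteins. All 12 changes were negative and their median was -0.94. The 7 genes were therefore also tested against these 12, by subtracting the mean log2 value of the 12 in each library. On that scale most genes of other cells are higher after nintedanib (62.9% of genes passed in either direction against vehicle and 86.4% in the main effect). The adjustment therefore raises p less than on the deposited scale. For Esm1 with nintedanib it raised the limma p from 0.00144 to 0.00675, against 0.000563 to 0.131 on the deposited scale.

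Against endothelial genes, 3 of 7 fell with nintedanib, where 0.135% of all genes did. Esm1 fell by 1.67 ± 0.48 (3.19-fold, adjusted p = 0.00675), Apln by 1.03 ± 0.37 (2.04-fold, adjusted p = 0.0216) and Dll4 by 0.89 ± 0.30 (1.85-fold, adjusted p = 0.0152). In the main effect the same 3 genes fell (background 0.161%), by 1.10 ± 0.35, 1.13 ± 0.27 and 0.62 ± 0.22. These 3 main-effect calls held in all 17 fits with a library left out, but that of Dll4 was lost with a reference of 3 endothelial genes (-0.46 ± 0.24, adjusted p = 0.0681). The Apln call with nintedanib was lost without Vehicle 4 or Non-responder 2 (adjusted p up to 0.0594). With those 3 genes the Apln and Dll4 calls with nintedanib were also lost (adjusted p = 0.0732 and 0.0658).

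For Notch4 no difference from the endothelial genes was resolved: its relative change was -0.39 ± 0.31 with nintedanib and -0.29 ± 0.22 in the main effect. The 95% interval of the latter, -0.75 to 0.17, covers both no change and a further decrease. Aplnr was on the other side of 0, at 0.55 ± 0.31 in the main effect (adjusted p = 0.0968), and passed as higher without Responder 1 (0.78, adjusted p = 0.00907) or with 3 reference genes (0.70, adjusted p = 0.0454). With all libraries 86.4% of all genes passed in the main effect on this scale, and 0.161% passed as lower. Passing as higher is thus not particular to Aplnr. Notch1 was at 0.33 ± 0.30 and passed as higher without Alpelisib 1 (0.58 ± 0.24, adjusted p = 0.023), where 93.1% of all genes did. Hey1 was at 0.21 ± 0.26.

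With the combination, 1 of 7 genes fell against endothelial genes, Apln, by 1.50 ± 0.39 (2.83-fold, adjusted p = 0.00416), where 0.0845% of all genes did. Its relative value was 0.71 to 1.24 after vehicle and -1.54 to 0.32 after the combination. Dll4 overlapped on this scale, at -0.41 to 0.13 after vehicle and -0.72 to -0.28 after the combination, and its change was -0.34 ± 0.32. For the combination against alpelisib Apln fell by 1.23 ± 0.39 (adjusted p = 0.0357, background 0.0254%), a call lost in the 7 fits without a combination library or 1 of Alpelisib 2 to 4 (adjusted p up to 0.108). Without Alpelisib 1 Apln and Esm1 fell in that comparison, by 1.49 ± 0.37 and 1.30 ± 0.36 (background 0.0676%).

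**Figure D3:**
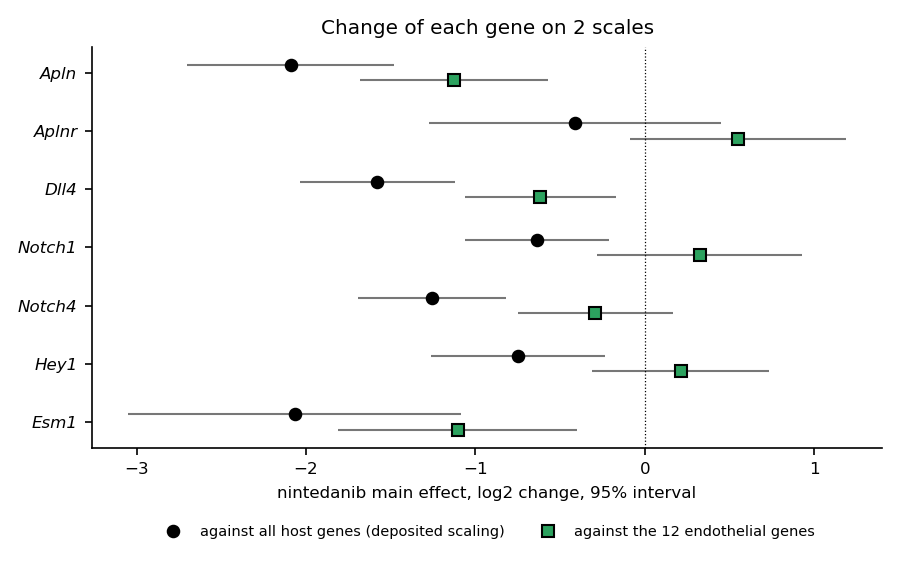
Main effect of nintedanib on each of the 7 host genes as a log2 change with its 95% interval, on the deposited scale (circles) and after subtracting the mean of 12 endothelial genes (squares). Apln, Esm1 and Dll4 lie below 0 on both scales, at -1.13, -1.10 and -0.62 on the second. The interval of Notch4 crosses 0 on the second scale.

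The other genes of both pathways mostly did not pass in the main effect of nintedanib. Over all 11831 genes 71 passed there in either direction, and 0.499% as lower. At that share most short lists would hold no gene that passed, so no absence of change is read from these counts. Of the Notch ligands 4 of 6 were tested, and Dll4 alone passed as lower in the main effect of nintedanib. Jag2 was at -0.87 ± 0.23 (adjusted p = 0.111), Jag1 at -0.18 ± 0.21 and Dll1 at -0.17 ± 0.22. Of the 4 Notch receptors Notch4 alone passed, with Notch3, the mural cell receptor, at -0.51 ± 0.27 and Notch2 at 0.22 ± 0.22.

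None of the 18 genes for Notch cleavage, glycosylation and trafficking passed (median change 0.01), and none of 8 nuclear cofactors did (median 0.02). In the same main effect 71 of all 11831 genes passed in either direction. The lowest p among them belonged to Numbl (0.31 ± 0.15) and Maml3 (-0.40 ± 0.18). None of the 6 tested of 8 Notch targets passed either: the median was -0.30, with Hes1 at -0.05 ± 0.17 and Heyl at -0.32 ± 0.25. Of the apelin pathway 4 of 6 genes were tested and Apln alone passed. The peptidases were at 0.25 ± 0.16 for Furin, which processes proapelin, and at -0.09 ± 0.40 for Mme, which degrades apelin.

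The tip-cell and sprouting list, which holds Apln, Dll4 and Esm1, had 20 of 20 genes tested. It too was chosen with earlier results of these data known, so its counts are descriptive. In the main effect 8 passed as lower and 0 as higher (0.499% of all genes passed as lower), 18 of 20 changes were negative, and the median was -0.75 against 0.00 over all genes. Besides Apln and Dll4 these were Kcne3, a potassium channel subunit (-2.35 ± 0.39), Flt4, the receptor of VEGF-C (-1.72 ± 0.25), and the basement membrane gene Nid2 (-1.62 ± 0.32). Angpt2, a Tie2 ligand, was at -1.50 ± 0.24, the VEGF receptor Flt1 at -1.23 ± 0.25 and the semaphorin receptor Plxnd1 at -0.72 ± 0.16. Kdr, the main VEGF receptor, was at -1.02 ± 0.29 (adjusted p = 0.138), and Adm, adrenomedullin, was at 0.77 ± 0.33 (adjusted p = 0.485).

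Kcne3 matched Esm1 in Alpelisib 1 (23.3, against 122 to 269 in the other 3 alpelisib tumours), whereas Flt4 did not, with its highest alpelisib value in that library (149, against 63.1 to 85.7). For single comparisons, 3 genes of this list passed as lower with nintedanib (Apln, Dll4 and Flt4; background 0.144%) and 4 with the combination (also Kcne3; 0.38%). For the combination against alpelisib 0 passed (0.00845%), or 4 without Alpelisib 1 (Apln, Dll4, Esm1 and Kcne3; 0.11%). Of the arterial genes Gja5, a gap junction protein, fell with the combination by 2.79 ± 0.60 (adjusted p = 0.036), and none of 5 venous genes passed. Among 11 mural cell markers Ndufa4l2 rose in the main effect by 1.44 ± 0.29 (adjusted p = 0.0238), where 71 of 11831 genes passed in either direction. The change of Notch3, also on that list, was negative. The 11 markers summed to 2452 to 5334 after vehicle, 2407 to 4705 after nintedanib and 3641 to 4906 after the combination.

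**Figure D4:**
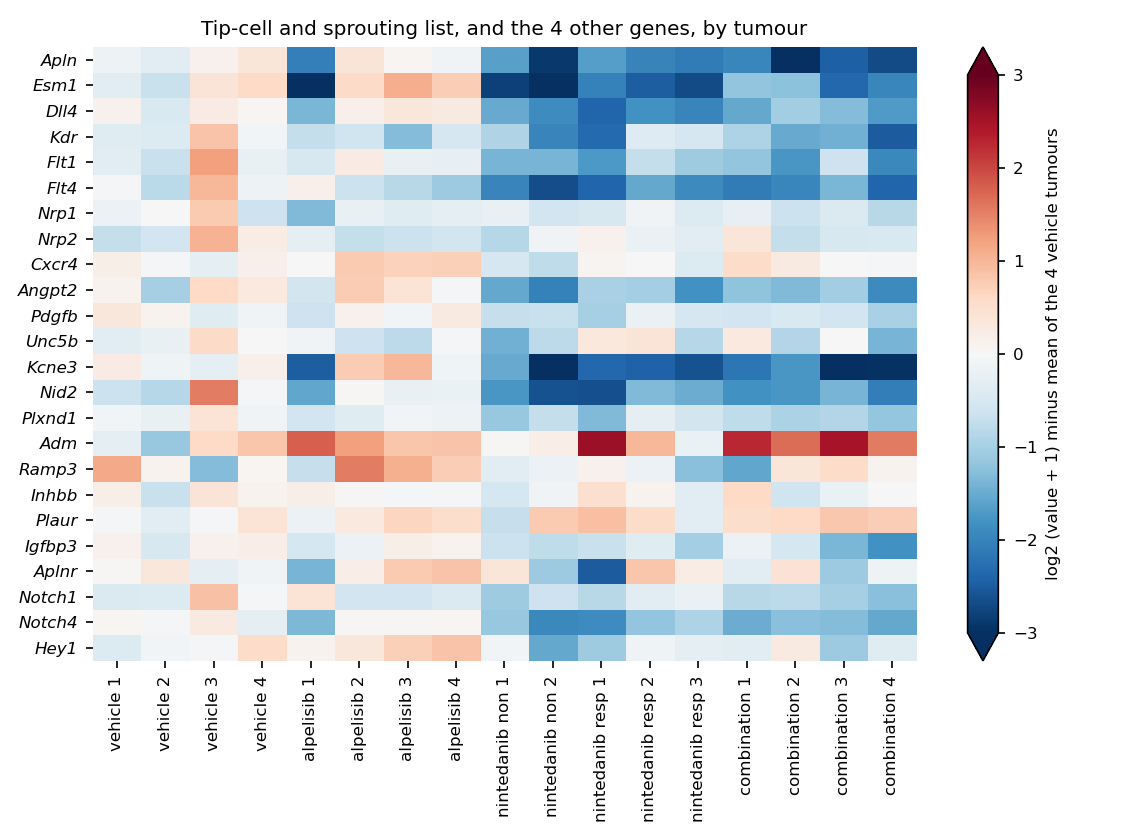
Log2 value of each gene of the tip-cell and sprouting list, and of Aplnr, Notch1, Notch4 and Hey1, in every tumour, less the mean of the 4 vehicle tumours (colour, limited to -3 to 3). The 9 tumours at the right received nintedanib. Apln, Esm1, Dll4, Kcne3 and Notch4 are blue there and in Alpelisib 1, and Flt4 is blue there and not in Alpelisib 1. Adm is red in the alpelisib and combination tumours and, among others, in Responder 1, Responder 2 and Vehicle 4.

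The tumour cells' own copies were read from the human table. Mouse reads outnumbered human reads in 17 of 17 libraries for Aplnr, Dll4, Esm1, Notch4 and Hey1, and human ESM1 had at most 1 read. NOTCH1 and APLN were the exceptions, and for APLN the mouse reads were more in 8 of 17 libraries. Human APLN was at 104 ± 47.0 after vehicle (SD, n = 4), 221 ± 71.5 after alpelisib (n = 4), 180 ± 64.8 after nintedanib (n = 5) and 288 ± 53.9 after the combination (n = 4). The combination tumours (224 to 352) were all above the vehicle tumours (56.7 to 146), as 5.27% of human genes were, and so were the alpelisib tumours (155 to 320, 5.89% of human genes). Host Apln had its lowest group mean in the combination. The human change with the combination was 1.56 ± 0.34 (2.96-fold) and missed the threshold over the 14533 human genes tested (adjusted p = 0.0533, background 0.358%), and passed in 4 of 17 fits, those without Vehicle 4, Non-responder 1, Responder 1 or Responder 3 (lowest adjusted p = 0.0323). Alpelisib 1 was the highest alpelisib library (the others were at 155 to 222), and without it the combination change had an adjusted p of 0.066. With alpelisib it was 1.15 ± 0.34 (adjusted p = 0.209) and with nintedanib 0.82 ± 0.32 (adjusted p = 0.619), comparisons in which limma called 0 human genes (2707 and 1035 at an unadjusted p under 0.05).

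Human NOTCH1 was at 994 ± 317 after vehicle, 538 ± 227 after alpelisib, 568 ± 140 after nintedanib and 468 ± 95.9 after the combination. Its changes were -1.04 ± 0.30 with the combination (adjusted p = 0.114), -0.89 ± 0.30 with alpelisib and -0.78 ± 0.29 with nintedanib, none of which passed. Alpelisib 1 was the highest alpelisib library for both NOTCH1 (878) and host Notch1 (235). Whether human reads of this conserved gene were assigned to mouse was not tested.

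**Figure D5:**
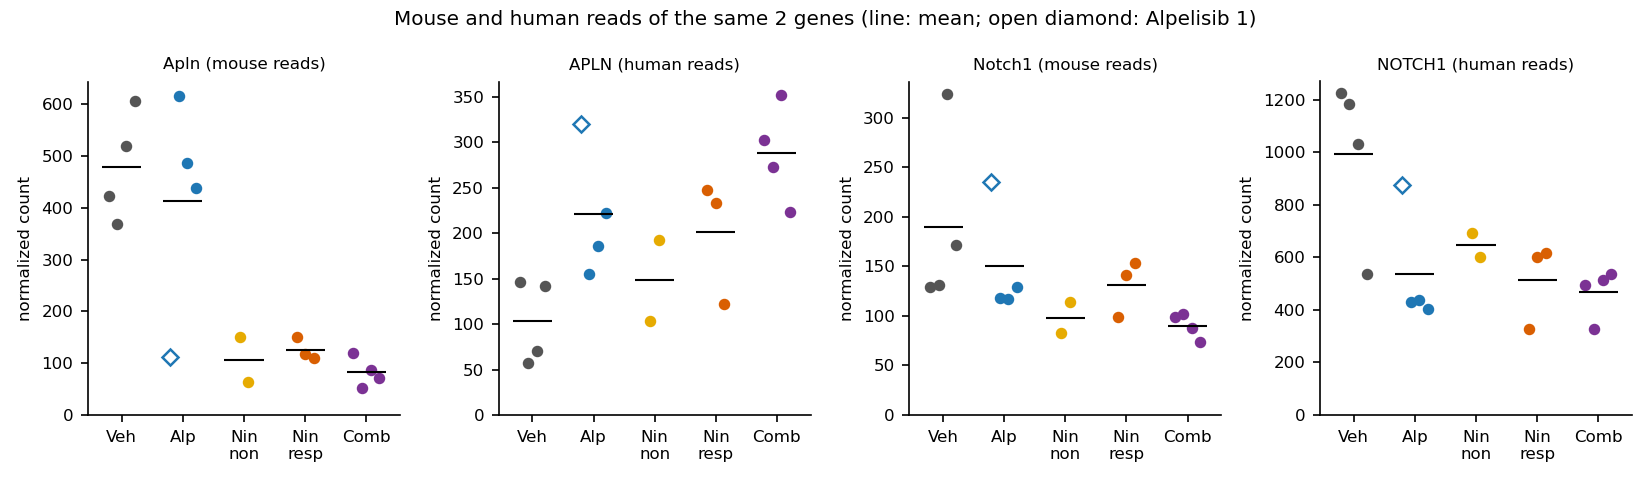
Mouse and human normalized counts of the apelin and NOTCH1 genes in the 17 tumours, with group means (lines) and Alpelisib 1 (open diamond). Host Apln is 52.3 to 120 and human APLN 224 to 352 in the combination tumours, the lowest and the highest group means of the respective panels.

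Across the 17 libraries, the 7 genes were compared with 7790 mouse genes of a mean of at least 50 (7791 for Hey1) by Pearson's r of their log2 values, as a description over libraries that share treatment groups and depth. Dll4 was most like Mest (0.954), Trp53i11 (0.949) and the endothelial matrix gene Mmrn2 (0.933). Notch4 was most like Mmrn2 (0.962), Apln was most like Kcne3 (0.92) and Esm1 most like Dll4 (0.896). Notch1 was instead nearest to Lama5 (0.924), Hey1 to Crip2 (0.877) and Aplnr to Fam171a1 (0.764).

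After group means were removed, the nearest genes were Esam for Aplnr (0.879), Cd34 for Dll4 (0.915) and Clec14a for Hey1 (0.832), which are expressed in endothelium. For the other 4 they were Gdap2 for Apln (0.916), Ctgf for Esm1 (0.917), Polr3a for Notch1 (0.929) and Lum, a fibroblast matrix gene, for Notch4 (0.926). Among the 21 pairs of the 7 genes, r over 17 libraries ran from -0.01 (Aplnr and Notch1) to 0.931 (Dll4 and Notch4), with a median of 0.578. Within groups it ran from -0.472 (Apln and Notch1) to 0.877 (Dll4 and Notch4), with Alpelisib 1 included. Over the 16 libraries without Alpelisib 1, r ran from 0.172 (Aplnr and Notch1) to 0.931 (Dll4 and Notch4), with a median of 0.605.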

How the data were processed

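The deposited tables hold normalized counts, a signal in which the authors scaled each library's counts by 1 size factor. Per the submitters' processing notes, Bowtie, TopHat and DESeq2 were used with the builds hg19 and mm10; versions, counter and strand are not given in the sources used here. Smallest steps returned whole reads for 100% of values (within 0.001); in Combination 2 a mouse read is worth 1.01, so near 1 that rounded values could look alike. No location or sequence is given, because no mouse annotation was used.

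The log2 of each value plus 1 was fitted in limma 3.58.1 (R 4.3.3), with 1 mean for each of 5 groups and 17 libraries; nintedanib weighted its 5 libraries equally. Genes with a mean of at least 10 were tested, two-sided, with Benjamini-Hochberg adjustment. Scripts were tested on simulated data. Named genes were the 7, their human counterparts, the endothelial genes, list genes that passed (otherwise up to 3 with the lowest p) and the 3 nearest in pattern; others were named after their values were seen. The 7 genes and all lists were chosen with earlier results of these data known.

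Alternatives were TMM scaling, pseudocounts of 0.5 and 5, no filter or a mean of at least 50, edgeR 4.0.16, limma-voom, DESeq2 1.42.0, a replicate block, leaving out libraries, and a reference of 3 endothelial genes. No 2 libraries were copies (chi-square per gene at least 14.4 over 22 pairs within groups).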

Additional observations from a re-analysis of the deposited data

Results flagged for a closer look

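Within groups of 4 or 5 libraries, 1 library lay far from the others for 4 of 46 gene and group pairs tested by Dixon's ratio, and chance flags about 1 in 20. Alpelisib 1 was the highest alpelisib library for Notch1 (235, next 129.5, ratio 0.892) and for human NOTCH1 (877.7, next 438.4, ratio 0.929), and the lowest for Notch4 (104.3, next 272.8, ratio 0.959). Responder 1 was the lowest nintedanib library for human NOTCH1 (326.8, next 600.5, ratio 0.746).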

How the results depend on the processing

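Of the 7 genes, 2 passed with nintedanib, 3 with the combination, 0 for the combination against alpelisib and 3 in the main effect. With nintedanib the count was 1 under TMM scaling, no filter, a mean of at least 50 or the replicate block, 4 with DESeq2 and 0 without the libraries rich in ribosomal reads. With the combination it was 1 under no filter or the replicate block, 5 with DESeq2, 2 under TMM scaling or limma-voom, 0 without the ribosomal libraries and 1 when Alpelisib 1 was also left out. For the combination against alpelisib DESeq2 gave 3, and the main effect gave 0 without the ribosomal libraries. Against endothelial genes the counts were 3 with nintedanib (1 with 3 reference genes, 1 without the ribosomal libraries), 1 with the combination (2 and 0) and 1 for the combination against alpelisib (0 without the ribosomal libraries). The cause was not tested, except that fewer libraries remain where some are left out.

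Leaving out 1 library at a time gave 0 (without Vehicle 1) to 4 genes with nintedanib, 0 (without Combination 4) to 4 with the combination, 0 to 4 for the combination against alpelisib and 3 to 4 in the main effect, the 4 being reached without Alpelisib 1. Against endothelial genes it gave 2 to 4, 1 to 1, 0 to 2 and 3 to 4, and for human counterparts with the combination 0 to 1. Signs turned in these fits for alpelisib against vehicle: Apln -0.71 to 0.11, Aplnr -0.14 (without Alpelisib 4) to 0.61, Dll4 -0.32 to 0.26, Esm1 -0.69 to 0.80, Notch1 -0.53 to 0.00074 (without Vehicle 3) and Notch4 -0.43 to 0.046, the highest value being without Alpelisib 1 for all of these but Notch1. They also turned for Aplnr with nintedanib (-0.75 to 0.083) and the additivity of Notch4 (-0.032 to 0.44). For alpelisib, edgeR turned Esm1 to 0.35, and leaving out the ribosomal libraries turned Aplnr to -0.21 and Notch1 to 0.10.

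Over all mouse genes, calls with nintedanib were 18 (edgeR on recovered reads 20, DESeq2 93, no filter 10, mean of at least 50 7, replicate block 10, without ribosomal libraries 2; 4 to 33 with 1 library left out), with the combination 92 (69, 481, 47, 60, 46, 22; 5 to 130), for the combination against alpelisib 1 (0, 22, 1, 0, 0, 0; 0 to 13) and in the main effect 71 (87, 256, 57, 42, 61, 1; 40 to 115). Replicate numbers did not pair libraries: correlations of same-numbered libraries exceeded 0.1 in 5 of 29 pairs, against 30 of 85 for different numbers, and 2 of 17 libraries were nearest to their own number. Under the replicate block Apln with nintedanib was -1.95 (adjusted p = 0.137), and Dll4 and Notch4 with the combination had adjusted p of 0.0656 and 0.0578. Hey1 and Esm1 had as few as 11 reads in a library.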
